A study of Homo sapiens with 12 samples.

Results

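The 41 genes described here form the ATF4 amino acid response and the unfolded protein response, and they were taken by symbol from 43828 gene places in the count tables. By role they were 8 transcription factors, 2 stress sensor kinases, 6 stress effectors and feedback genes, 8 enzymes of amino acid and one-carbon metabolism, 4 amino acid transporters, 10 chaperones and folding enzymes of the endoplasmic reticulum, and 3 genes of endoplasmic reticulum degradation. RNA-seq was done on CCRF-CEM, a human T lymphoblast leukemia line, in 4 groups of 3 libraries: SLFN11 knockout cells given 100 nM camptothecin for 4 h, SLFN11 knockout cells given the solvent DMSO, SLFN11-positive parent cells (labelled wild-type) given camptothecin, and parent cells given DMSO. Camptothecin locks topoisomerase I onto DNA. Cancer cells that express SLFN11, a helicase-like protein, are known to be more sensitive to drugs of this kind. The DMSO groups are called untreated. How the knockout was made, and whether it is 1 clone, is not said in the labels. Nor do they say whether separate cultures stand behind the 3 libraries of a group, and the spread that the p-values rest on may therefore be technical.

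When unfolded proteins collect in the endoplasmic reticulum, or when amino acids run short, sensor kinases phosphorylate the translation factor eIF2. General protein synthesis then slows while the ATF4 mRNA is translated more, and ATF4 switches on genes for amino acid uptake, amino acid synthesis and stress adaptation, DDIT3 and TRIB3 among them. Another arm runs through ERN1, whose nuclease splices the mRNA of XBP1, and the last through ATF6, which is cleaved in the Golgi. XBP1 and ATF6 drive the chaperones, folding enzymes and degradation genes of the endoplasmic reticulum. Because ATF4 is controlled mostly through translation, the amount of its mRNA does not show the amount of its protein.

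The libraries held 42439957 to 63606344 reads in exons, apart from replicate 1 of the untreated parent cells (parent control replicate 1) with 135592046. This deepest library also differed from the other untreated parent libraries in level (HSP90B1 had 618 CPM in it, against 473 and 468 CPM), so each comparison is also given without it. CPM is the count scaled to the TMM-adjusted library size. Replicate 3 of the camptothecin-treated knockout cells stood apart in some values too. Introns held 33.6% of its exon and intron reads, against 26.3% to 30.5% in the other libraries. SLC7A1 had 153 CPM in it, against 101 and 106 CPM in the rest of its group. SLFN11 exon reads averaged 86.9 ± 1.58 CPM in untreated knockout cells and 112 ± 4.93 CPM in untreated parent cells (SD, n = 3 each), a log2 difference of -0.37 (edgeR adjusted p = 0.000133). Its intron reads differed the other way, at 110.4 ± 0.973 CPM in untreated knockout cells and 73.6 ± 1.05 CPM in untreated parent cells, a log2 difference of 0.58 (edgeR adjusted p = 9.43e-07). Its RNA was therefore still present in the cells labelled knockout, and counts over a whole gene cannot show a small insertion or deletion. All 11 T lymphoblast markers reached at least 1 CPM in every library. Their summed level was 1747 to 1829 CPM in camptothecin-treated knockout, 2085 to 2096 in untreated knockout, 1340 to 1348 in camptothecin-treated parent and 1743 to 1860 in untreated parent cells. The 4 epithelial and fibroblast markers summed to 8.78 to 9.34 CPM in camptothecin-treated knockout, 7.88 to 8.17 in untreated knockout, 2.32 to 3.21 in camptothecin-treated parent and 1.94 to 2.68 in untreated parent cells, with COL1A2 at 0 reads. The 4 B lineage markers, of which 1 reached 1 CPM everywhere and MS4A1 had 0 reads, summed to 24.0 to 30.6 CPM in camptothecin-treated knockout, 29.3 to 31.5 in untreated knockout, 14.5 to 15.1 in camptothecin-treated parent and 18.9 to 24.6 in untreated parent cells. The myeloid list to 0.431 to 1.06 CPM, and the erythroid list to at most 0.418 CPM with HBB at 0 reads. The part of these marker levels in the results below was not tested.

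Of the 41 genes, 39 had enough exon reads to be tested. The other two were NUPR1, a small stress-induced chromatin protein with 18 exon reads over all 12 libraries, and STC2, a secreted glycoprotein with 4. Per kilobase of exon, the level in untreated parent cells was highest for ATF4, at 158 CPM per kb, followed by HSP90B1 at 111 and DDIT4, an inhibitor of mTORC1, at 78.4. It was lowest among the tested genes for ALDH1L2, a mitochondrial folate enzyme, at 0.0583 CPM per kb, and CTH, which makes cysteine from cystathionine, stood at 0.218. The share of exon reads free of any other gene was lowest in ATF5 (0%), ALDH1L2 (9.01%), DDIT3 (18.1%), DDIT4 (43.6%), MTHFD2 (45.6%), EIF2AK3 (49.5%) and PDIA6 (70.1%); where genes overlap, their reads cannot be told apart. Fold changes are given as log2 change ± SE from edgeR's quasi-likelihood test, and a gene is called at an adjusted p below 0.05 over all genes tested.

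In camptothecin-treated parent cells several known ATF4 targets and partners rose, DDIT3, CHAC1 and CEBPB among them, while most chaperones and all 3 degradation genes of the endoplasmic reticulum fell. Of the 39 tested, 14 rose and 14 fell, against 16.8% of all 23546 genes tested called up and 17.1% called down. The median log2 change of the 39 genes was -0.07, and that of all genes was 0.01. Rises were called for 4 of 7 transcription factors, 2 of 2 sensor kinases, 3 of 5 effectors, 3 of 8 enzymes and 1 of 4 transporters. Falls were called for 7 of 10 chaperones and folding enzymes and 3 of 3 degradation genes, and for XBP1, ATF6, DDIT4 and PSAT1; 1 chaperone gene, DNAJB9, rose. In bulk RNA, fewer expressing cells and less RNA per cell cannot be told apart. With parent control replicate 1 left out, 17 genes rose and 15 fell, against 18.95% of all genes up and 17.4% down in that fit, and with library size alone as the scale, which moved the median of all genes to 0.14, 16 rose and 12 fell.

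ATF4 itself (hg19 chromosome 22, 39915699 to 39918690) had 411, 402 and 398 CPM in camptothecin-treated parent cells, against 479, 355 and 360.3 CPM in untreated parent cells. The untreated libraries spanned the treated ones, because parent control replicate 1 was above them and the other two were below. Its log2 change was 0.02 ± 0.09 (edgeR adjusted p = 0.895). Without parent control replicate 1 it was 0.18 and called (edgeR adjusted p = 0.00311), and without replicate 2 or 3 of the untreated parent cells it was -0.06 and -0.05.

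DDIT3 (chromosome 12, 57910370 to 57914299), also known as CHOP and a transcription factor tied to stress-induced cell death, had 48.2, 47.9 and 46.3 CPM in camptothecin-treated parent cells, against 20.1, 17.3 and 18.5 CPM in untreated parent cells. Every treated library was above every untreated one. Its log2 change was 1.35 ± 0.07, a 2.55-fold rise (edgeR adjusted p = 4.04e-10). Only 18.1% of its exon reads lay where no other gene does, since MARS overlaps it, and in those reads the rise was 1.80 (edgeR adjusted p = 5e-06).

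CEBPB (chromosome 20, 48807375 to 48809211), a leucine zipper factor that pairs with ATF4, had 35.7, 38.8 and 36.7 CPM in camptothecin-treated parent cells and 13.1, 16.8 and 16.7 CPM in untreated parent cells. The groups lay apart, and the log2 change was 1.26 ± 0.10 (edgeR adjusted p = 4.9e-08). CEBPG, another such partner, rose by 0.71 ± 0.07. ATF5, a factor related to ATF4 (chromosome 19, 50431958 to 50437191), had 48.4, 47.5 and 46.1 CPM in camptothecin-treated parent cells and 25.6, 23.6 and 26.2 CPM in untreated parent cells, a log2 change of 0.92 ± 0.07 (edgeR adjusted p = 3.2e-08). None of the ATF5 exons was free of other genes, with NUP62 and IL4I1 among the overlapping ones, so its level is uncertain throughout.

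In exon reads 2 effectors had the largest rises, although DDIT3 rose more in introns and in reads free of MARS. CHAC1 (chromosome 15, 41245159 to 41248709), an enzyme that degrades glutathione, had 13.8, 13.5 and 13.8 CPM in camptothecin-treated parent cells, against 4.55, 5.33 and 4.89 CPM in untreated parent cells. SESN2 (chromosome 1, 28586037 to 28609001), a leucine sensor that restrains mTORC1 and is also a p53 target, had 28.3, 27.1 and 27.5 CPM in camptothecin-treated parent cells and 8.78, 11.7 and 10.0 CPM in untreated parent cells. In neither gene did the groups overlap: CHAC1 rose by 1.48 ± 0.14 (edgeR adjusted p = 2.86e-07) and SESN2 by 1.45 ± 0.09 (edgeR adjusted p = 4.27e-09). TRIB3 (chromosome 20, 361260 to 378202), a pseudokinase that feeds back on ATF4, had 76.5, 76.3 and 74.6 CPM in camptothecin-treated parent cells and 36.3, 45.9 and 47.1 CPM in untreated parent cells, a rise of 0.82 ± 0.09 (edgeR adjusted p = 1.97e-06). DDIT4 fell by 0.64 on the log2 scale, to 104 ± 2.14 CPM in camptothecin-treated parent cells, against 161 ± 22.3 CPM in untreated parent cells (SD, n = 3 each). VLDLR, a lipoprotein receptor, was not called at -0.21, but was at -0.25 without parent control replicate 1 (edgeR adjusted p = 0.0348).

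**Figure D1:**
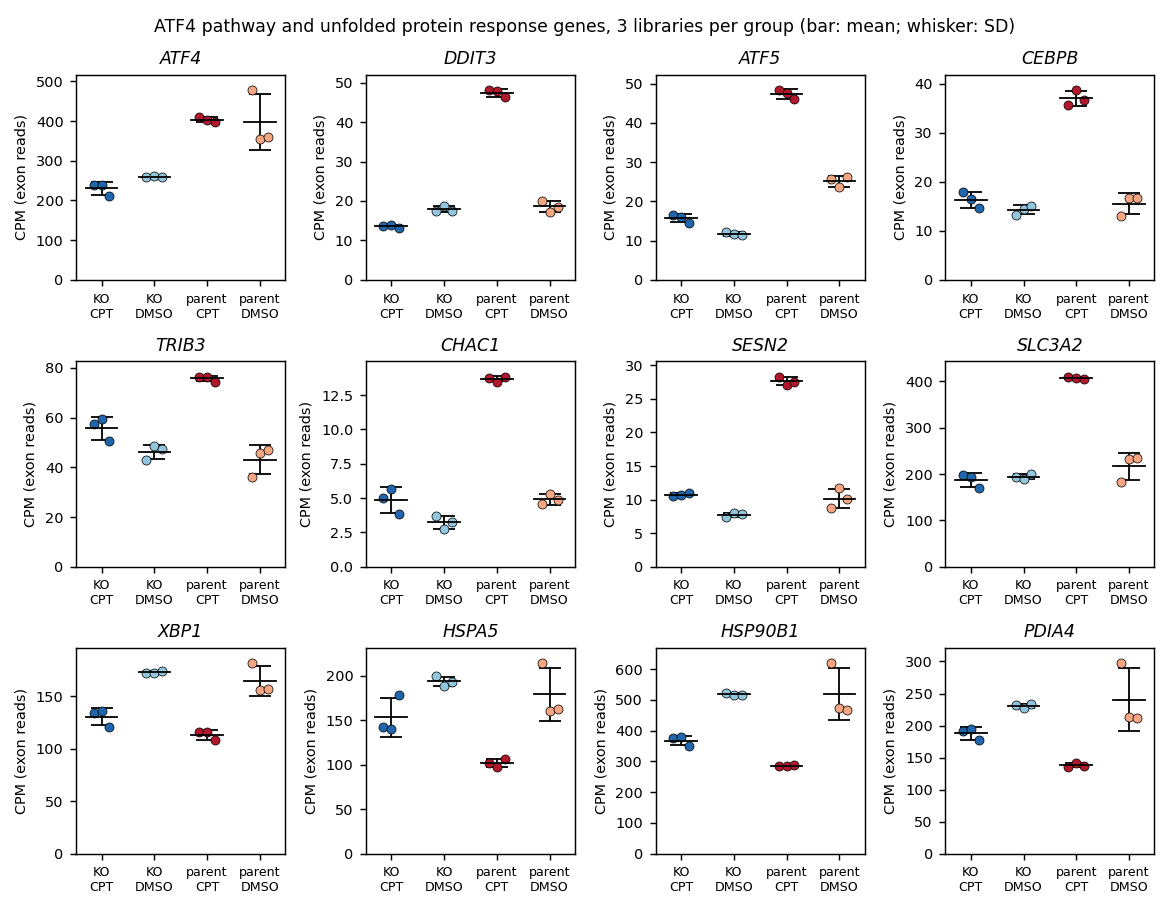
Exon reads in CPM (y axis, from 0) of 12 of the genes in each of the 12 libraries; points are libraries, the horizontal bar is the mean and the whisker the SD over 3 libraries, with KO for SLFN11 knockout and CPT for camptothecin. DDIT3, CEBPB, CHAC1, SESN2 and SLC3A2 stand high in camptothecin-treated parent cells, with SLC3A2 at 407 ± 3.07 CPM there (mean ± SD, n = 3) and no library above 234 CPM in the other groups, and the upper untreated parent point of HSP90B1, at 618 CPM, is replicate 1.

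Of the 12 enzymes and transporters of amino acid metabolism, 4 rose, 1 fell and 7 were not called. The transporter subunit SLC3A2 (chromosome 11, 62623517 to 62656351), the heavy chain that carries SLC7A5 and SLC7A11 to the cell surface, had 409.9, 406 and 404 CPM in camptothecin-treated parent cells, against 183, 232 and 234 CPM in untreated parent cells. All treated libraries were above all untreated ones, and the log2 change was 0.91 ± 0.08 (edgeR adjusted p = 3.09e-07). Its light chains were not called: SLC7A5 stood at 0.11 ± 0.08 and SLC7A11, the cystine carrier, at -0.10 ± 0.07. SLC7A1, a carrier of cationic amino acids, stood at 0.04 ± 0.13. Asparagine synthetase ASNS (chromosome 7, 97481429 to 97501853), a much used reporter of ATF4, had 15.7, 15.3 and 16.1 CPM in camptothecin-treated parent cells and 13.9, 12.9 and 12.5 CPM in untreated parent cells. The groups did not overlap, but its rise of 0.26 ± 0.09 (edgeR adjusted p = 0.0266) was called in 7 of 12 fits that each left out 1 library (edgeR adjusted p up to 0.0972, without replicate 3 of the untreated parent cells). CTH rose by 1.13 ± 0.27 at about 1 CPM, and MTHFD2, another mitochondrial folate enzyme, rose by 0.34 ± 0.06. PSAT1, which takes part in serine synthesis, fell by 0.38 on the log2 scale (edgeR adjusted p = 3.25e-05). PHGDH, PSPH and SHMT2, which also serve serine and glycine synthesis, were not called, at -0.12, 0.18 and 0.13. PSPH and SHMT2 were called without parent control replicate 1, at 0.23 and 0.18. ALDH1L2, at under 1 CPM, was not called either.

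Both sensor kinases rose. EIF2AK3, also called PERK, had 46.0, 46.6 and 49.8 CPM in camptothecin-treated parent cells and 40.18, 27.4 and 32.3 CPM in untreated parent cells, a log2 change of 0.51 ± 0.10 (edgeR adjusted p = 0.000758). ERN1, also called IRE1, had 22.6, 20.7 and 23.7 CPM in camptothecin-treated parent cells and 12.9, 15.6 and 16.4 CPM in untreated parent cells, a log2 change of 0.58 ± 0.10 (edgeR adjusted p = 0.000144). The treated libraries were above the untreated ones in both genes.

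The transcription factors of the other arms fell. XBP1 (chromosome 22, 29190542 to 29196584) had 116, 116 and 108 CPM in camptothecin-treated parent cells, against 181, 156 and 157 CPM in untreated parent cells, with no overlap and a log2 change of -0.54 ± 0.07 (edgeR adjusted p = 1.06e-05). Gene counts do not separate its spliced from its unspliced mRNA. ATF6 averaged 45.5 ± 0.661 CPM in camptothecin-treated parent cells and 73.6 ± 11.3 CPM in untreated parent cells (SD, n = 3 each), and its log2 change was -0.70 ± 0.08 (edgeR adjusted p = 4.93e-06).

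Chaperones of the endoplasmic reticulum fell with them. HSPA5 (chromosome 9, 127997131 to 128003608), the Hsp70 chaperone also called BiP, had 102, 97.6 and 107 CPM in camptothecin-treated parent cells and 214, 161 and 163 CPM in untreated parent cells. HSP90B1 (chromosome 12, 104323884 to 104347422), the Hsp90 of this compartment, had 286, 286 and 287 CPM in camptothecin-treated parent cells and 618, 473 and 468 CPM in untreated parent cells. Every treated library lay below every untreated one in both genes, with log2 changes of -0.81 ± 0.11 for HSPA5 (edgeR adjusted p = 2.58e-05) and -0.86 ± 0.09 for HSP90B1 (edgeR adjusted p = 8.25e-07). Without parent control replicate 1, which was the highest library of both, the changes were -0.66 and -0.71. The disulfide isomerases PDIA4 and PDIA6 fell by 0.80 and 0.70 on the log2 scale, the co-chaperone DNAJC3 by 0.71 and the secreted survival factor MANF by 0.70. DNAJB11, an Hsp40 partner of HSPA5, was called at -0.29 (edgeR adjusted p = 0.048), but in only 2 of 12 fits without 1 library; without parent control replicate 1 it stood at -0.09 (edgeR adjusted p = 0.161), and with library size alone at -0.15 (edgeR adjusted p = 0.167). DNAJB9, another Hsp40, rose by 0.27 ± 0.08. In reads free of its neighbours DNAJB9 stood at 0.20 and was not called (edgeR adjusted p = 0.0665). SDF2L1 and CRELD2 were not called, at -0.28 and -0.07, and without parent control replicate 1 SDF2L1 was called at -0.48 (edgeR adjusted p = 3.57e-06). Of the degradation genes, SEL1L, an adaptor of the HRD1 ubiquitin ligase, fell by 0.56 on the log2 scale, EDEM1, a lectin that hands over misfolded glycoproteins, by 0.39, and HERPUD1, a membrane component of the same ligase, by 0.32.

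**Figure D2:**
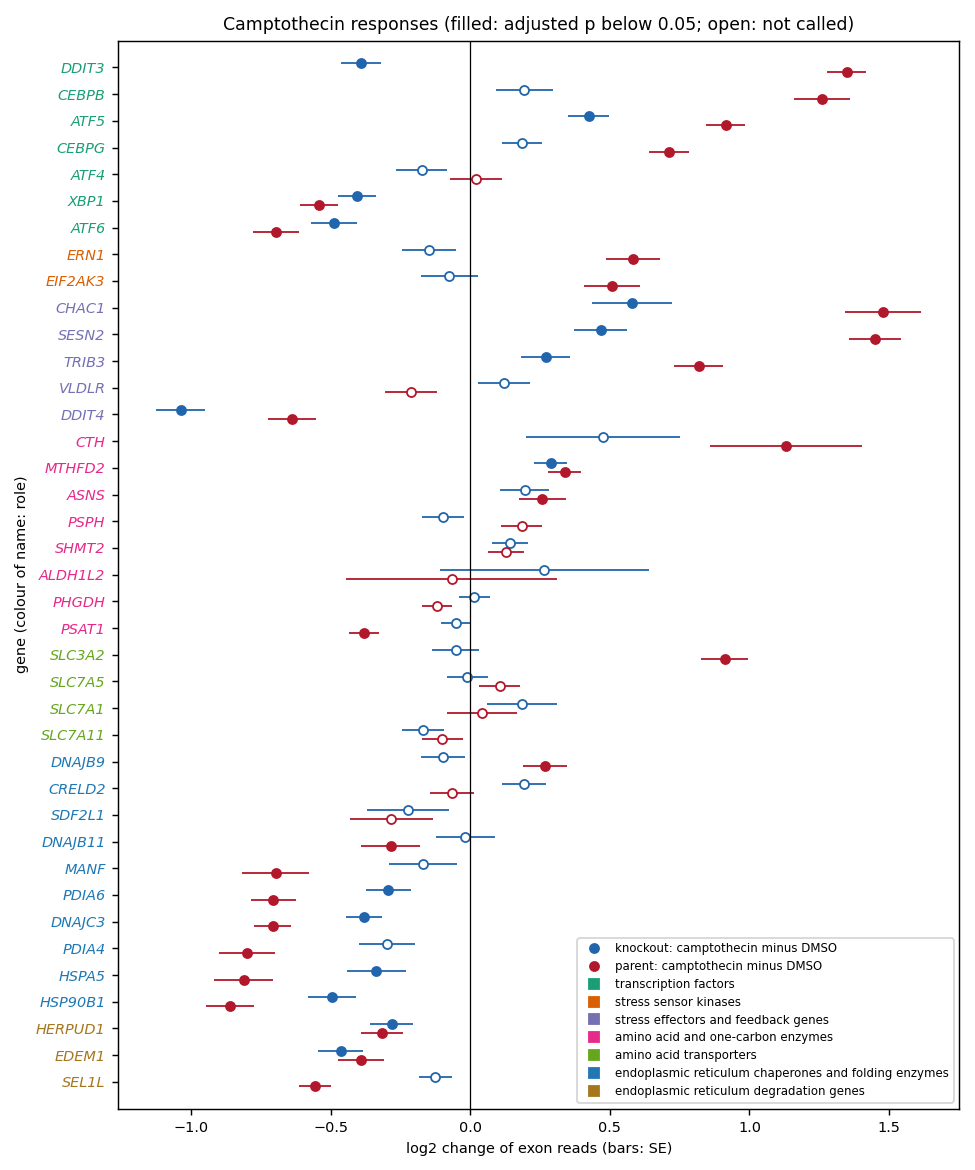
Log2 change of exon reads with camptothecin (x axis; bars are SE from edgeR's test) for the 39 tested genes, grouped by role; the upper point of each pair is the knockout, the lower one the parent, and filled points passed an adjusted p of 0.05. The knockout point of DDIT3 lies at -0.39 and its parent point at 1.35; knockout points run between -1.04 for DDIT4 and 0.58 for CHAC1, and parent points between -0.86 for HSP90B1 and 1.48 for CHAC1.

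The RefSeq promoter windows were searched for the letters of 4 known response elements. Windows of 300 bases, 250 before and 50 after a gene start (GRCh38.p14), were matched by symbol for 36 of the 41 genes, and ALDH1L2, NUPR1, PSPH, SHMT2 and SLC7A11 had none. Some genes had several windows and were counted when any window matched. The shares of all promoters count single windows, so genes and promoters are unlike units here. The endoplasmic reticulum stress element (ERSE), searched as CCAAT, 9 bases and CCACG on both strands, stood in 0.0769% of all 35116 promoters of that length. It stood in 5 of the 36 genes: HSPA5, HSP90B1, PDIA6, XBP1 and CRELD2. All of these but CRELD2, which was not called, fell in camptothecin-treated parent cells. ERSE-II, searched as ATTGG, 1 base and CCACG, stood in HERPUD1 and SDF2L1 and in 0.0541% of all promoters, and the UPRE letters TGACGTGG in none of the 36 and in 0.729% of all. PDIA4, DNAJC3, MANF, DNAJB11, SEL1L and EDEM1 also fell in camptothecin-treated parent cells and held neither ERSE nor ERSE-II in their windows. A tie between these letters and the falls was not tested. The 250 bases before the start are printed for the 4 genes with an ERSE that fell, with the ERSE in capitals, 5′ to 3′ on the strand of the gene. HSP90B1 holds the element on both strands. PDIA6 and XBP1 each have another start whose window held no match, and only the matching window is printed. The windows are chr9:125241344-125241593 (minus strand) for HSPA5, chr12:103930160-103930409 (plus strand) for HSP90B1, chr2:10812786-10813035 (minus strand) for PDIA6 and chr22:28800570-28800819 (minus strand) for XBP1, all in GRCh38.p14.
HSPA5: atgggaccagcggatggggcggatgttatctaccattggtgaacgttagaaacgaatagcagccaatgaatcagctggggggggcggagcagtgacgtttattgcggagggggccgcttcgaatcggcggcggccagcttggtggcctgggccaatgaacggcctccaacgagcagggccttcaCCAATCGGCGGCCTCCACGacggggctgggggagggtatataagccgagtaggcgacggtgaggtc
HSP90B1: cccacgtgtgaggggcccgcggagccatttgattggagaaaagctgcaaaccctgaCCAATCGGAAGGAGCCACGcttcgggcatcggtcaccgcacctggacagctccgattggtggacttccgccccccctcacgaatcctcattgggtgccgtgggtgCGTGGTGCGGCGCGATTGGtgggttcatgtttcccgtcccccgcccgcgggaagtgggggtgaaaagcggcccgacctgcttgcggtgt
PDIA6: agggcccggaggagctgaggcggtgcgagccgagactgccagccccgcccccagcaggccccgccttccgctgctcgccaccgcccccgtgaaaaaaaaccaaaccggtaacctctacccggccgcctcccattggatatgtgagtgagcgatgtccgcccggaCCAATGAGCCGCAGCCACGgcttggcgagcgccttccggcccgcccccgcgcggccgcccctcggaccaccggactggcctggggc
XBP1: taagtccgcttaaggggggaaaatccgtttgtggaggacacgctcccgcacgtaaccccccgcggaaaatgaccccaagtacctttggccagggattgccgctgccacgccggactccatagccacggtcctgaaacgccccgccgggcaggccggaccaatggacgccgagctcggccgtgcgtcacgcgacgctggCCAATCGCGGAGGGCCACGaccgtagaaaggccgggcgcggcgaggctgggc
These matches describe letters in a window and show no binding.

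The core of the CEBP-ATF response element (CARE), to which ATF4 binds with a CEBP partner, was searched as TGATGNAA on both strands. It overlapped no match of the other motifs in the promoters of the 36 genes searched. It stood in 3.62% of all promoters and in 6 of the 36 genes: ASNS, CEBPG, CHAC1, SLC3A2, HERPUD1 and SLC7A1. ASNS, CEBPG, CHAC1 and SLC3A2 rose in camptothecin-treated parent cells, HERPUD1 fell and SLC7A1 was not called. In SLC3A2 and SLC7A1 the match lay after the start. ASNS has another start whose window held no match and is not printed. The 250 bases before the start are shown for CHAC1, with the largest rise in exon reads, and ASNS, the reporter gene, with the CARE core in capitals. They are chr15:40953221-40953470 (plus strand) for CHAC1, where the core lies on the other strand, and chr7:97872409-97872658 (minus strand) for ASNS.
CHAC1: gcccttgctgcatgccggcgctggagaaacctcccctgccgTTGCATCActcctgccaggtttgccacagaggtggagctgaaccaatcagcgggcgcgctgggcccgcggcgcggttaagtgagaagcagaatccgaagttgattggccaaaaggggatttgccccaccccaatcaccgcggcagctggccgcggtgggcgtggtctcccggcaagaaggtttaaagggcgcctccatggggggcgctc
ASNS: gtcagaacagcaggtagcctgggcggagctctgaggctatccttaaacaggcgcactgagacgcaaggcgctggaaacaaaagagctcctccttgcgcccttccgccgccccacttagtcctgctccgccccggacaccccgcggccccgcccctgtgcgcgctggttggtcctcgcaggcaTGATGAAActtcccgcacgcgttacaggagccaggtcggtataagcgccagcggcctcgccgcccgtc
DDIT3, SESN2 and TRIB3, which rose more than ASNS did, held no CARE core in these windows.

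Intron reads come mostly from RNA that is not yet spliced, and they were tested as a separate measure. Of 38 genes tested in introns, 9 rose and 11 fell in camptothecin-treated parent cells, against 12.1% of all 19908 genes tested called up and 14.2% called down. CEBPB has no intron in these tables. The intron length of DDIT4 is only 59 bases, so its intron reads are a poor measure of unspliced RNA. The exon and intron calls pointed the same way in 9 genes up and 9 genes down, 9 genes were called in exons alone, 2 in introns alone, and none was called in opposite directions. XBP1 introns had 12.8, 10.3 and 9.95 CPM in camptothecin-treated parent cells, against 37.3, 23.2 and 23.8 CPM in untreated parent cells, a log2 change of -1.36 ± 0.17 (edgeR adjusted p = 7e-06). HSP90B1 introns had 68.8, 61.8 and 64.5 CPM in camptothecin-treated parent cells and 186, 149 and 144 CPM in untreated parent cells, a change of -1.30 ± 0.08 (edgeR adjusted p = 1.71e-10). No library of one group reached into the other in either gene. MANF and SDF2L1 introns fell by 1.21 and 1.17 on the log2 scale and those of PDIA4 and PDIA6 by 0.999 and 0.949. On the other side DDIT3 introns had 43.7, 46.9 and 44.3 CPM in camptothecin-treated parent cells and 18.5, 10.8 and 13.8 CPM in untreated parent cells, a rise of 1.63 ± 0.14 (edgeR adjusted p = 1.02e-08). CHAC1 introns rose by 1.51, ATF5 introns by 1.25 and ASNS introns by 0.79. ERN1, SEL1L, ATF6 and DDIT4, all called in exons, stood at -0.08, -0.03, 0.14 and -0.08 in introns and were not called there. The difference between exon and intron changes was not tested.

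**Figure D3:**
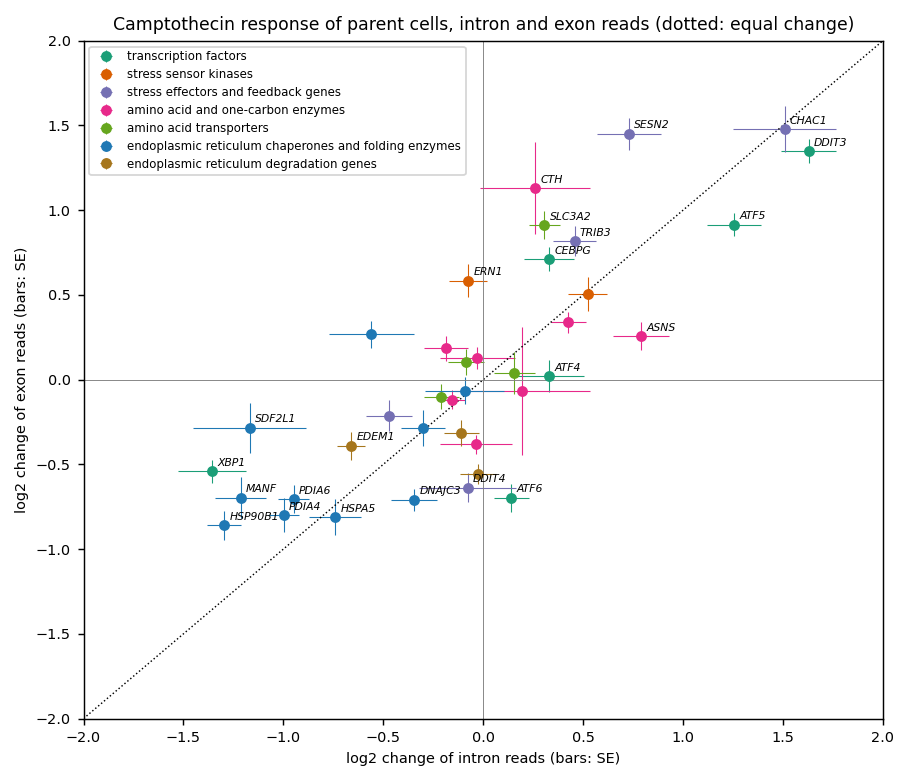
Log2 change of intron reads (x axis) and exon reads (y axis) with camptothecin in parent cells for the 38 genes with both; bars are SE, colours mark the role and the dotted line marks equal change. DDIT3 and CHAC1 lie at the upper right, at 1.63 and 1.51 in introns, XBP1 and HSP90B1 lie at the lower left, at -1.36 and -1.30, and ERN1 lies at 0.58 in exons and -0.08 in introns.

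In the main fit, where all 4 groups share 1 estimate of the spread, the same drug left a smaller set of calls in SLFN11 knockout cells. There 5 of the 39 genes rose and 10 fell in exon reads, against 7.3% of all genes called up and 9.28% called down, with a median log2 change of -0.07 over the 39 genes and 0.02 over all genes. The counts were 9 and 15 without parent control replicate 1, where the shares of all genes called also grew, to 13.0% up and 14.3% down. That library is in neither knockout group and enters this comparison only through the shared spread, the scaling and the filter. With only the knockout libraries fitted, 8 rose and 13 fell. With only the parent libraries fitted, 14 rose and 13 fell in the parent response. The shares of all genes called in those fits are not given here. With library size alone, which moved the median of all genes to 0.17 and made 78.7% of all called genes higher, the knockout counts were 11 up and 7 down. In the main fit the genes that rose were CHAC1, SESN2, ATF5, MTHFD2 and TRIB3. Those that fell were DDIT4, HSP90B1, ATF6, EDEM1, XBP1, DDIT3, DNAJC3, HSPA5, PDIA6 and HERPUD1.

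DDIT4 moved most, with 93.4, 93.4 and 79.8 CPM in camptothecin-treated knockout cells, against 180, 182 and 185 CPM in untreated knockout cells, a log2 change of -1.04 ± 0.09 (edgeR adjusted p = 2.44e-07). HSP90B1 had 375, 378 and 350.3 CPM in camptothecin-treated knockout cells and 523, 516 and 516 CPM in untreated knockout cells, a change of -0.49 ± 0.09 (edgeR adjusted p = 0.000665). XBP1 had 134, 136 and 121 CPM in camptothecin-treated knockout cells and 172, 172 and 174 CPM in untreated knockout cells, a change of -0.41 ± 0.07 (edgeR adjusted p = 0.000482). In these 3 genes the groups did not overlap. HSPA5 had 142, 140 and 178 CPM in camptothecin-treated knockout cells and 199, 189 and 193 CPM in untreated knockout cells. Treated libraries were below untreated ones, yet its fall of 0.34 on the log2 scale was near the threshold (edgeR adjusted p = 0.0422) and was called in 4 of 12 fits without 1 library (edgeR adjusted p up to 0.164). ATF6 had 44.2, 46.5 and 44.8 CPM in camptothecin-treated knockout cells and 61.9, 62.8 and 65.1 CPM in untreated knockout cells. EDEM1 had 146, 149 and 163 CPM in camptothecin-treated knockout cells and 210.4, 217 and 205 CPM in untreated knockout cells. The groups lay apart in both genes, which fell by 0.49 and 0.46 on the log2 scale. The calls of PDIA6 and HERPUD1, at -0.29 and -0.28, were made in 8 of 12 fits without 1 library each.

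Among the ATF4-type genes, CHAC1 had 5.03, 5.66 and 3.82 CPM in camptothecin-treated knockout cells and 3.69, 2.78 and 3.26 CPM in untreated knockout cells. SESN2 had 10.5, 10.7 and 10.9 CPM in camptothecin-treated knockout cells and 7.47, 7.98 and 7.79 CPM in untreated knockout cells. Treated libraries were above untreated ones in both, with rises of 0.58 ± 0.14 for CHAC1 (edgeR adjusted p = 0.0104) and 0.47 ± 0.10 for SESN2 (edgeR adjusted p = 0.00265). The CHAC1 call was lost without knockout control replicate 2, at 0.48, and without camptothecin-treated knockout replicate 2, at 0.45. ATF5 rose by 0.42 ± 0.07, to 16.6, 15.98 and 14.6 CPM in camptothecin-treated knockout cells, against 12.2, 11.6 and 11.4 CPM in untreated knockout cells. TRIB3 rose by 0.27 (edgeR adjusted p = 0.0478), a call made in 4 of 12 fits without 1 library (edgeR adjusted p up to 0.204, without knockout control replicate 1). DDIT3 had 13.8, 13.9 and 13.2 CPM in camptothecin-treated knockout cells and 17.5, 18.8 and 17.4 CPM in untreated knockout cells, with no overlap, and fell by 0.39 on the log2 scale (edgeR adjusted p = 0.00108). In the DDIT3 reads free of MARS the change was -0.09 (edgeR adjusted p = 0.816). ATF4 had 239.6, 239.5 and 212 CPM in camptothecin-treated knockout cells and 260.3, 261 and 259 CPM in untreated knockout cells. Its change of -0.17 ± 0.09 was not called in the main fit (edgeR adjusted p = 0.238). It was called as a fall with only the knockout libraries fitted (edgeR adjusted p = 0.0105) and without parent control replicate 1 (edgeR adjusted p = 0.00309). The ATF4 treated libraries were below the untreated ones. ASNS had 11.9, 13.4 and 13.0 CPM in camptothecin-treated knockout cells and 12.1, 10.3 and 11.1 CPM in untreated knockout cells, which overlap, and its change of 0.20 ± 0.09 was not called (edgeR adjusted p = 0.152). No sensor kinase and no transporter was called.

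Introns of knockout cells gave 3 genes up and 10 down, against 7.85% of all genes called up and 9.05% called down. The rises were in ATF5, MTHFD2 and SLC7A1, of which SLC7A1 was not called in exons. SLC7A1 introns had 139, 143 and 188 CPM in camptothecin-treated knockout cells and 123, 127 and 123 CPM in untreated knockout cells. XBP1, DDIT4, HSP90B1, HSPA5, MANF and PDIA4 introns fell by 1.02, 0.93, 0.90, 0.69, 0.66 and 0.63 on the log2 scale. The DDIT4 call rests on an intron length of only 59 bases and was made in 10 of 12 fits without 1 library. Those of the other 5 were made in all 12. SLC7A5, not called in exons, fell by 0.46 in introns (edgeR adjusted p = 0.00103).

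The responses of knockout and parent cells differed for 15 of the 39 genes in the interaction test. The difference, knockout minus parent, was above 0 in 5 genes and below 0 in 10, against 1.84% of all genes called above 0 and 4.47% called below 0. The counts were 9 and 14 without parent control replicate 1, where 5.10% of all genes were called above 0 and 9.30% below, and without knockout control replicate 2 they were 1 and 8. With library size alone they were 8 above 0 and 10 below. The 10 genes below 0 were 4 transcription factors, 2 sensor kinases, 3 effectors and 1 transporter, and all 10 rose in parent cells. In knockout cells ATF5, CHAC1, SESN2 and TRIB3 rose, DDIT3 was called as a fall in all exon reads but not in reads free of MARS, and CEBPB, CEBPG, SLC3A2, ERN1 and EIF2AK3 were not called.

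DDIT3 changed by -0.39 in knockout cells and 1.35 in parent cells, a difference of -1.74 ± 0.10 (edgeR adjusted p = 5.03e-09), and of -1.897 in reads free of MARS (edgeR adjusted p = 0.000938). CEBPB had 17.9, 16.5 and 14.7 CPM in camptothecin-treated knockout cells and 13.3, 14.6 and 15.1 CPM in untreated knockout cells, where treated and untreated libraries overlapped. Its change was 0.19 in knockout cells (called at 0.20 without parent control replicate 1, edgeR adjusted p = 0.0392) and 1.26 in parent cells, a difference of -1.07 ± 0.14 (edgeR adjusted p = 0.000129). SLC3A2 had 198, 194 and 171 CPM in camptothecin-treated knockout cells and 193, 189.8 and 200.3 CPM in untreated knockout cells, again overlapping. The SLC3A2 change was -0.05 in knockout cells and 0.91 in parent cells, and the difference was -0.96 ± 0.12 (edgeR adjusted p = 6.16e-05). For SESN2 the difference was -0.98 ± 0.13 (edgeR adjusted p = 0.000165), and for CHAC1 it was -0.90 ± 0.20 (edgeR adjusted p = 0.0101). Both genes rose in either genotype.

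ERN1 changed by -0.15 in knockout cells and 0.58 in parent cells, a difference of -0.73 ± 0.14 (edgeR adjusted p = 0.00318). It had 16.4, 15.1 and 18.5 CPM in camptothecin-treated knockout cells and 18.3, 18.6 and 18.4 CPM in untreated knockout cells, which overlap. EIF2AK3 had 34.5, 31.9 and 31.7 CPM in camptothecin-treated knockout cells and 34.0, 34.4 and 34.8 CPM in untreated knockout cells, also overlapping. Its difference was -0.58 ± 0.14 (edgeR adjusted p = 0.01996) and was called in 6 of 12 fits without 1 library (edgeR adjusted p up to 0.065). TRIB3 had 57.3, 59.3 and 50.6 CPM in camptothecin-treated knockout cells and 43.1, 48.4 and 47.2 CPM in untreated knockout cells, so that treated libraries were the higher ones in either genotype. TRIB3, CEBPG and ATF5 had differences of -0.55, -0.53 and -0.49. TRIB3 lost its call without knockout control replicate 2 (edgeR adjusted p = 0.0538).

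The 5 genes above 0 were all called as falls in parent cells, and of them DNAJC3 and PDIA6 were also called as falls in knockout cells. SEL1L changed by -0.12 in knockout cells and -0.56 in parent cells, a difference of 0.43 ± 0.08 (edgeR adjusted p = 0.00353). PSAT1 changed by -0.05 in knockout cells and -0.38 in parent cells, a difference of 0.33 ± 0.08 (edgeR adjusted p = 0.0141), called in 10 of 12 fits without 1 library. The calls of PDIA4, PDIA6 and DNAJC3, at 0.50, 0.41 and 0.33, held in 3, 4 and 4 of those 12 fits. HSPA5 changed by -0.34 in knockout cells and -0.81 in parent cells, but its difference of 0.48 ± 0.15 was not called (edgeR adjusted p = 0.078). It was called with DESeq2 (DESeq2 adjusted p = 0.0295), and in edgeR with library size alone (edgeR adjusted p = 0.035) or no filter (edgeR adjusted p = 0.00087). Leaving out untreated parent replicate 2 or 3 also gave a call, while leaving out parent control replicate 1 did not. XBP1, at 0.13 ± 0.10, and ASNS, at -0.06 ± 0.12, were not called. The ATF4 difference of -0.20 was not called either (edgeR adjusted p = 0.453); without parent control replicate 1 it was -0.35 (edgeR adjusted p = 0.000216). Also called without that library were HSP90B1, MANF, CRELD2 and VLDLR, at 0.23, 0.30, 0.33 and 0.38, and DDIT4, DNAJB9 and PSPH, at -0.28, -0.40 and -0.32. DESeq2 with all 12 libraries called 8 differences above 0 and 12 below, with HSP90B1, MANF, DDIT4 and DNAJB9 among them.

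In introns the difference was above 0 in 3 genes, against 3.0% of all genes, and below 0 in 3, against 2.81%. DDIT3 introns had 11.1, 9.70 and 9.59 CPM in camptothecin-treated knockout cells and 10.9, 12.4 and 11.4 CPM in untreated knockout cells, and the difference of responses was -1.82 ± 0.20 (edgeR adjusted p = 7.48e-06). ATF5 and EIF2AK3 introns had differences of -0.82 and -0.61, and PDIA6, HSP90B1 and PDIA4 introns of 0.49, 0.40 and 0.37. The calls of ATF5, HSP90B1 and PDIA4 were made in 10, 4 and 2 of 12 fits without 1 library.

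Before any drug, knockout cells had less RNA of serine and one-carbon enzymes, ATF4 and ATF5 than parent cells, and no chaperone of the endoplasmic reticulum was called in the main fit. With no filter, MANF and DNAJB11 were called lower, at -0.34 and -0.26, and SDF2L1 higher, at 0.32. Library size alone called CRELD2 and DNAJB9 higher, both at 0.28, and a replicate block called MANF lower. Of the 39 genes, 1 was higher and 12 were lower in untreated knockout than in untreated parent cells, against 8.26% of all genes called higher and 7.44% called lower. The median log2 difference was -0.10 over the 39 genes and -0.01 over all genes. Leaving out parent control replicate 1 gave 4 higher and 16 lower, against 9.585% of all genes higher and 8.21% lower in that fit, and with library size alone 4 higher and 10 lower.

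ATF4 had 260.3, 261 and 259 CPM in untreated knockout cells, against 479, 355 and 360.3 CPM in untreated parent cells. All knockout libraries were below all parent libraries, and the log2 difference was -0.61 ± 0.09 (edgeR adjusted p = 0.00016). Without parent control replicate 1 it was -0.46 (edgeR adjusted p = 8.57e-09). ATF5 had 12.2, 11.6 and 11.4 CPM in untreated knockout cells and 25.6, 23.6 and 26.2 CPM in untreated parent cells, a difference of -1.10 ± 0.07 (edgeR adjusted p = 1.25e-08). DDIT3 had 17.5, 18.8 and 17.4 CPM in untreated knockout cells and 20.1, 17.3 and 18.5 CPM in untreated parent cells, which overlap, at -0.06 ± 0.07 (edgeR adjusted p = 0.635).

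Of the 8 enzymes 5 were lower. PHGDH (chromosome 1, 120202420 to 120286837), which commits 3-phosphoglycerate to serine synthesis, had 154, 148 and 156 CPM in untreated knockout cells and 215, 208 and 213 CPM in untreated parent cells. PSAT1 (chromosome 9, 80912058 to 80945008), the enzyme after it, had 80.5, 79.5 and 81.1 CPM in untreated knockout cells and 108, 114 and 115 CPM in untreated parent cells. The genotypes lay apart in both genes, by -0.47 ± 0.05 for PHGDH (edgeR adjusted p = 7.79e-06) and -0.48 ± 0.05 for PSAT1 (edgeR adjusted p = 6.72e-06). MTHFD2 had 102, 110.2 and 112 CPM in untreated knockout cells and 142, 150.4 and 146 CPM in untreated parent cells, a difference of -0.44 ± 0.06 (edgeR adjusted p = 5.76e-05). PSPH, which ends the serine pathway, was at -0.32 and SHMT2, the mitochondrial serine hydroxymethyltransferase, was at -0.29. ASNS had 12.1, 10.3 and 11.1 CPM in untreated knockout cells and 13.9, 12.9 and 12.5 CPM in untreated parent cells, without overlap, but its difference of -0.23 ± 0.09 was not called (edgeR adjusted p = 0.0795).

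SLC7A11 had 20.8, 22.3 and 20.8 CPM in untreated knockout cells and 29.9, 27.3 and 29.9 CPM in untreated parent cells, a difference of -0.45 ± 0.07 (edgeR adjusted p = 0.000429). CHAC1 had 3.69, 2.78 and 3.26 CPM in untreated knockout cells and 4.55, 5.33 and 4.89 CPM in untreated parent cells. SESN2 had 7.47, 7.98 and 7.79 CPM in untreated knockout cells and 8.78, 11.7 and 10.0 CPM in untreated parent cells. Knockout libraries were the lower ones in these 3 genes, and CHAC1, SESN2, HERPUD1 and VLDLR were at -0.60, -0.38, -0.34 and -0.31. The CHAC1 call was lost without knockout control replicate 2 (edgeR adjusted p = 0.0562), that of SESN2 without knockout control replicate 1 (edgeR adjusted p = 0.0536), and that of VLDLR was made in 7 of 12 fits without 1 library. ERN1 was higher by 0.31 ± 0.10 (edgeR adjusted p = 0.0401); the call was made in 5 of 12 fits without 1 library and lost without any one of the knockout controls (edgeR adjusted p up to 0.117), and without parent control replicate 1 it stood at 0.21. XBP1, at 0.07, and HSPA5, at 0.11, were not called, and their knockout and parent libraries overlapped. Without parent control replicate 1, XBP1 and the chaperones HSP90B1 and DNAJB9 were called higher in knockout cells, at 0.14, 0.14 and 0.23, and SLC3A2 and SLC7A5 lower, at -0.26 and -0.20.

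**Figure D4:**
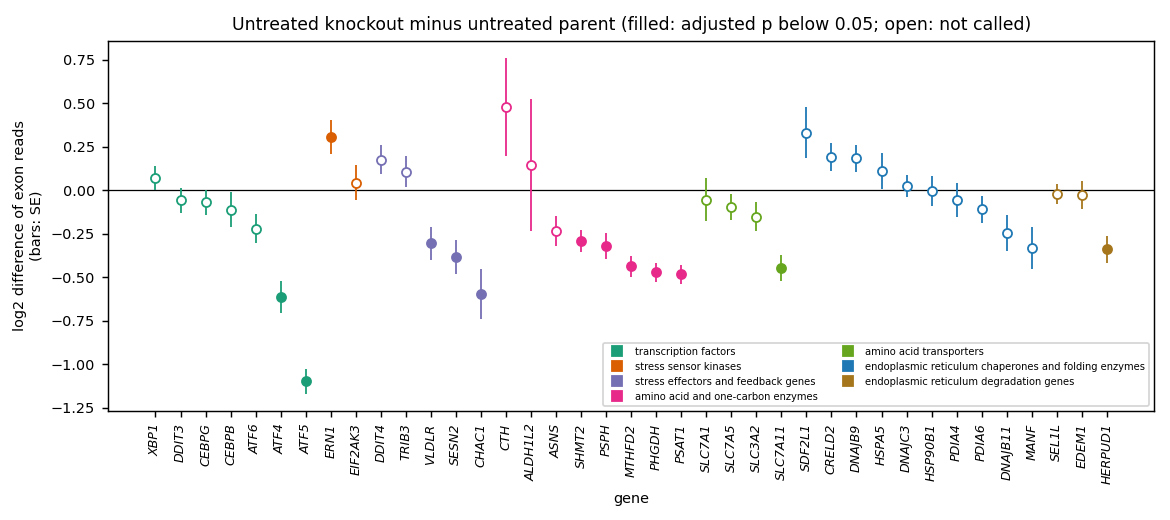
Log2 difference of exon reads, untreated knockout minus untreated parent cells (y axis; bars are SE), for the 39 tested genes by role; filled points passed an adjusted p of 0.05. ATF5 is lowest at -1.10, the 5 filled enzyme points lie between -0.48 and -0.29, and all 10 chaperone points are open.

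In introns 0 of 38 genes were called higher and 9 lower in untreated knockout cells, against 8.17% of all genes called higher and 6.43% called lower. DESeq2 also called 0 higher and 10 lower, and 16 of the 38 passed an unadjusted p of 0.05 in edgeR in either direction. SLC7A11, MTHFD2 and PHGDH introns were at -0.68, -0.45 and -0.39, the transporters SLC7A5 and SLC3A2 at -0.33 and -0.25, each of the transporter calls made in 8 of 12 fits without 1 library. ATF5 introns were at -0.58; without parent control replicate 1 they stood at -0.40 and were not called (edgeR adjusted p = 0.0705). ATF4 introns were at 0.10 ± 0.18 and were not called.

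Other genes of these pathways, from lists made with earlier results of these data known, gave the following counts in exon reads. Of 102 tested, 2 rose and 15 fell in camptothecin-treated knockout cells, and 13 rose and 41 fell in camptothecin-treated parent cells. For each of these lists the shares of all genes called were 7.3% up and 9.28% down in knockout cells, and 16.8% up and 17.1% down in parent cells, and several of the sublist counts lie near them. Of 24 other ATF4 targets and partners, 2 rose and 4 fell in knockout cells and 5 rose and 6 fell in parent cells, of which the parent rises are near the share of all genes. ATF3, a stress-induced repressor, changed by 0.20 in knockout cells and 3.35 in parent cells. The glycine carrier SLC6A9 rose by 0.87 in knockout cells and 1.26 in parent cells. The angiogenic factor VEGFA fell by 1.16 on the log2 scale in knockout cells and by 0.44 in parent cells. The folate enzyme MTHFD1L fell by 0.32 in knockout cells and 0.63 in parent cells, and the branched-chain transaminase BCAT1 by 0.43 in knockout cells and 0.50 in parent cells. Of 11 genes of eIF2 and stress kinase signalling, 0 rose and 2 fell in knockout cells, and 2 rose and 4 fell in parent cells. Among these 11, PPP1R15A, the phosphatase subunit that ends eIF2 phosphorylation, changed by 0.13 in knockout cells and 1.95 in parent cells. The difference between its responses was -1.82 (edgeR adjusted p = 8.64e-05). EIF2AK4, the GCN2 kinase that senses uncharged tRNA, fell by 0.40 on the log2 scale in knockout cells and by 0.57 in parent cells. Of 21 other folding genes, 0 rose and 1 fell in knockout cells, and 2 rose and 10 fell in parent cells; SIL1, a nucleotide exchange factor of HSPA5, changed by -0.69 in knockout cells and -0.86 in parent cells. Of 27 degradation, translocation and regulator genes, 0 rose and 3 fell in knockout cells, and 4 rose and 14 fell in parent cells.

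Many cytosolic aminoacyl-tRNA synthetases are known ATF4 targets. In exon reads 0 of 19 rose and 5 fell in camptothecin-treated knockout cells, against 7.3% of all genes up and 9.28% down, and 0 rose and 7 fell in camptothecin-treated parent cells, against 16.8% up and 17.1% down. With 19 genes, 0 rises in knockout cells is near the share of all genes. DARS changed by -0.50 in knockout cells and -0.56 in parent cells. Before treatment 0 of 19 were called higher and 10 lower in knockout than in parent cells, against 8.26% of all genes higher and 7.44% lower, with TARS, GARS and CARS at -0.60, -0.52 and -0.50. At an unadjusted edgeR p of 0.05, 8 passed in the knockout response, 10 in the parent response and 15 in the untreated comparison, in either direction. In introns, 0 of 19 rose and 6 fell in camptothecin-treated knockout cells, against 7.85% of all genes up and 9.05% down, and 5 rose and 3 fell in camptothecin-treated parent cells, against 12.1% up and 14.2% down.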

How the data were processed

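The deposited tables give, per library and gene, whole-number read counts for exons and introns and TPM values made by the authors; counts above 6 digits are rounded to 6 significant digits in the files, and TPM was not tested. Per the submitters' processing notes, the tools were STAR 2.5.4a, Picard 2.9.2, Trimmomatic 0.39 and Trim Galore 0.6.2, on hg19, in no stated role or order. How reads were assigned to genes (tool, annotation, strand) is something not given in the sources used here. Per the labels' protocols, RNA was TRIzol-extracted and the libraries were sequenced paired-end in 1 pool. One library name, that of parent control replicate 1, follows another pattern than the other 11.

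Exon and intron counts were fitted separately in edgeR 4.0.16 (R 4.3.3, limma 3.58.1; TMM scaling, filterByExpr, robust quasi-likelihood fit, 1 mean per group over 12 libraries), with Benjamini-Hochberg adjustment over all genes tested. Calls used an adjusted p of 0.05. The SE is the log2 change divided by the square root of F, so it restates the test. The exon biological coefficient of variation was 11.7%. The procedure was tested on simulated data. Alternatives were DESeq2 1.42.0, library size alone, no filter, only the groups compared, reads free of other genes, total reads, a replicate block and leaving out each library.

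Per-library values were given for ATF4, DDIT3, XBP1, HSPA5, ASNS and up to 8 called genes with the largest change at a mean of at least 1 CPM in each comparison. Members and lists were chosen with earlier results of these data known. Promoter sequences are from RefSeq (GRCh38.p14), apart from the hg19 gene coordinates.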

Additional observations from a re-analysis of the deposited data

Results flagged for a closer look

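The response to camptothecin differed between knockout and parent cells in 15 genes by the interaction test in exon reads (edgeR adjusted p below 0.05 each). The differences of log2 changes, knockout minus parent, are given here. Below 0 were DDIT3 at -1.74, CEBPB at -1.07, SESN2 at -0.98, SLC3A2 at -0.96, CHAC1 at -0.90, ERN1 at -0.73, EIF2AK3 at -0.58, TRIB3 at -0.55, CEBPG at -0.53 and ATF5 at -0.49. Above 0 were PDIA4 at 0.50, SEL1L at 0.43, PDIA6 at 0.41, PSAT1 at 0.33 and DNAJC3 at 0.33. DDIT3 was the one among them called in opposite directions in the 2 genotypes, and its fall in knockout cells was not called in reads free of MARS.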

How the results depend on the processing

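No called gene took an opposite call under any alternative: DESeq2 kept 71 of 71 exon and 48 of 48 intron calls, and library size alone 64 of 71 and 39 of 48. Leaving out 1 library at a time gave 11 to 24 exon calls for the knockout response, 26 to 32 for the parent response, 9 to 23 for the difference of responses and 10 to 20 for the untreated comparison. In introns these ranges were 9 to 13, 18 to 23, 3 to 7 and 5 to 11. The highest exon counts, 24, 23 and 20, came without parent control replicate 1, and the difference fell to 9 without knockout control replicate 2. Intron calls of the untreated comparison numbered 5 with library size alone and without knockout control replicate 1 or 3, and those of the difference 3 without knockout control replicate 2 or camptothecin-treated parent replicate 1. The ranges of log2 change given next cover only the fits without 1 library. Signs turned for ATF4 in the parent response (-0.059 and -0.051 without untreated parent replicate 2 or 3, range -0.059 to 0.179). They also turned for DDIT3 untreated (0.036 with library size alone, 0.001 without parent control replicate 1, range -0.117 to 0.001) and ASNS in the difference (0.001 without knockout control replicate 1, range -0.113 to 0.001). None was called in the main fit or where its sign turned. ATF4 was called at 0.179 without parent control replicate 1 (edgeR adjusted p = 0.0031). The cause was not tested. Library size alone changed the share of higher calls among all called genes, for example to 78.7% from 44.0% in the knockout exon response. A replicate block kept 69 of 71 exon and 47 of 48 intron calls, with 16, 28, 15 and 13 exon calls in the knockout response, parent response, difference and untreated comparison. Same-numbered libraries did not deviate together over all genes (correlations -0.032 to 0.032 in exons). Such correlations cannot show whether the numbers stand for paired cultures or batches. The block added exon calls of PDIA4 (knockout response) and MANF (difference and untreated), and an intron call of PSPH (untreated); it lost exon calls of DNAJC3 (difference) and VLDLR (untreated) and an intron call of DNAJB11 (parent response). NUPR1 and STC2 had too few reads to be tested; whether depth limits other calls was not tested.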
